A study of Homo sapiens with 6 samples.

Results

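Transcript levels of 10 tubulin genes were compared between doxorubicin-treated and DMSO-treated AC16 cells. The genes encode 4 alpha-tubulins (TUBA1A, TUBA1B, TUBA1C and TUBA4A) and 6 beta-tubulins (TUBB, TUBB2A, TUBB2B, TUBB3, TUBB4B and TUBB6). They are 10 of the 58299 Ensembl gene IDs in the count table and were picked by symbol. All 10 passed the filter on low counts, which left 15358 genes in the fit. The genes were picked with their response to doxorubicin already known, so the differences between doxorubicin and DMSO are given for them as a description, with no test.

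AC16 is a human cell line made by fusing adult ventricular heart cells with transformed fibroblasts. Doxorubicin is an anthracycline that traps type II topoisomerases on DNA. Doxorubicin-treated cells received 100 nM of the drug for 48 h (3 libraries), and control cells received 0.1% DMSO over the same 48 h (3 libraries). All cells were of the same line in the same medium, and the labels give no further treatment. Separate cultures are not mentioned in the labels, so the spread behind every p-value is that between these libraries and may be technical.

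Microtubules are hollow polymers of dimers, each built of an alpha-tubulin and a beta-tubulin. They form the mitotic spindle, the tracks for motor proteins and, in heart muscle cells, a lattice around the contractile fibres. Humans have several genes for each partner, and their products, the isotypes, differ mostly in an acidic tail at the end of the protein, where glutamates can be modified and motor and severing proteins bind. Cells also adjust tubulin mRNA to the amount of free dimer: TTC5 recognises the first residues of a nascent tubulin chain and, through SCAPER and the CCR4-NOT deadenylase, the mRNA is degraded. Rapidly dividing cells mostly use TUBA1B, TUBA1C, TUBB and TUBB4B, whereas TUBB3 is best known from neurons.

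The start of the coding sequence is shown because it encodes the residues read in that autoregulation. The first 12 coding bases of each gene's principal transcript, from GENCODE release 29 (GRCh38), are printed with the fourth codon, which differs between alpha and beta genes, in capitals.
TUBA1A, TUBA1B and TUBA1C: atgcgtgagTGC
TUBA4A: atgcgtgaaTGC
TUBB and TUBB4B: atgagggaaATC
TUBB2A: atgcgcgagATC
TUBB2B: atgcgtgagATC
TUBB3 and TUBB6: atgagggagATC
All 4 alpha genes had a cysteine codon in capitals and all 6 beta genes an isoleucine codon, with only synonymous differences within each family.

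Tails of beta-tubulins are shown because they tell the isotypes apart. The last 60 coding bases before the stop codon, from the same transcripts, are printed with the glutamate codons in capitals.
TUBB: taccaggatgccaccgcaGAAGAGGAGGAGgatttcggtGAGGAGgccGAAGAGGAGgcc
TUBB2A: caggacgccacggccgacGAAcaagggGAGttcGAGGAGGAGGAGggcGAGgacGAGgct
TUBB3: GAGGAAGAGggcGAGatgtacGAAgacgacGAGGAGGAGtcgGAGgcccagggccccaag
TUBB4B: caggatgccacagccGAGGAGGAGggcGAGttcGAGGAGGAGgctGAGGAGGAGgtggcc
TUBB6: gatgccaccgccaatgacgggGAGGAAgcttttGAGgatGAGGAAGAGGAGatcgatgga
TUBB2B differed from TUBB2A at 1 of 60 bases. Glutamate codons numbered 7 in TUBB6, 8 in TUBB2A, 9 in TUBB and TUBB3 and 10 in TUBB4B among the last 20 codons.

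Some of these genes are near-identical copies, which bears on how reads were assigned. TUBA1A and TUBA1B shared 97.2% of coding bases and 99.6% of residues, and TUBB2A and TUBB2B shared 98.1% of coding bases. Of the 50-base windows in TUBB2A transcripts, 58.7% also occurred on the same strand in another gene, mostly in TUBB2B. The share was 22.1% for TUBA1A, 25.6% for TUBA1B, 15.6% for TUBA1C, 14.2% for TUBB and 0.446% for TUBB6. The sources used here do not say how reads matching several places were counted, so the split within TUBA1A, TUBA1B and TUBA1C and within TUBB2A and TUBB2B is uncertain, and the summed values of those groups are given below as well. Of 52 listed tubulin pseudogenes, 22 had a count, and together they held 811 counts against 502960 for the 10 genes.

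Exons shared with neighbouring genes are a further limit, on either strand, since the libraries carried no strand. TUBA1A and TUBA1C lie head to head on opposite strands and shared 490 exon bases. Of the principal TUBA1B transcript, 72.6% lay within exons of its antisense gene TUBA1B-AS1, which held 4 counts in the 6 libraries. Of the principal TUBB3 transcript, 89.5% lay within exons of a same-strand gene listed only by ID, which held 3 counts, against 330 for TUBB3. The levels of TUBB3 and TUBA1B in particular depend on how reads in shared exons were treated, a setting that the sources used here do not give, and its effect was not tested.

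The column totals were 17252862 to 18665979 counts in doxorubicin libraries and 17929419 to 19571731 in DMSO libraries. Of the 10 cardiac muscle markers, 1 (TTN) passed the filter, and the list summed to 8.39 to 10.6 CPM in doxorubicin libraries and 6.09 to 6.63 CPM in DMSO libraries; CPM here is a library's count scaled by its total and by edgeR's TMM factor. MYH6, MYH7, MYL2, MYL7 and RYR2 had 0 counts in the DMSO libraries, so the cardiac part of the AC16 label was hardly visible there. In doxorubicin libraries they held 3, 1, 2, 1 and 22 counts. ACTN2 and TNNI3 each held 16 counts in doxorubicin libraries and 1 in DMSO libraries, whereas TNNT2 held 3 and 4 and NPPA 5 and 14. TTN was called higher with doxorubicin (log2 fold change 0.50, adjusted p = 0.0075, edgeR). All 7 fibroblast markers passed, with sums of 5312 to 7887 CPM in doxorubicin libraries and 15420 to 17710 CPM in DMSO libraries. COL1A1 alone had 3156 ± 730 CPM in doxorubicin libraries and 9864 ± 990 CPM in DMSO libraries. DCN went the other way (log2 fold change 0.49, adjusted p = 0.28, edgeR), and LUM was lower with an adjusted p of 0.063 (edgeR). The part of these marker differences in the tubulin values was not tested. In bulk RNA, fewer cells of a type and less RNA per cell cannot be told apart.

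All 4 alpha-tubulin genes were lower in every doxorubicin library than in every DMSO library. TUBA1B (chr12:49127782-49131397, minus strand, GRCh38), the most abundant alpha-tubulin here, had 275, 336 and 334 CPM in doxorubicin libraries, against 1218, 1326 and 1344 CPM in DMSO libraries. The highest doxorubicin library was far below the lowest DMSO library, with means of 315 ± 34.5 CPM in doxorubicin libraries and 1296 ± 68.2 CPM in DMSO libraries (SD, n = 3 each). Its log2 fold change was -2.04 ± 0.08 (SE), or 4.11-fold lower, and 0.566% of all tested genes had a lower log2 fold change.

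TUBA1A (chr12:49184796-49189324, minus strand), the alpha-tubulin mutated in lissencephaly and abundant in young neurons, had 52.3, 89.3 and 84.2 CPM in doxorubicin libraries, against 338, 327 and 327 CPM in DMSO libraries. The DMSO libraries lay close together, whereas doxorubicin replicate 1 stood well below the other doxorubicin libraries. The log2 fold change of -2.13 ± 0.21 was the lowest of the 10 genes, 4.39-fold lower, and its SE was also the widest.

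TUBA1C (chr12:49188736-49274603, plus strand), a further alpha-tubulin of dividing cells, had 153, 190.2 and 181 CPM in doxorubicin libraries, against 543, 606 and 613 CPM in DMSO libraries. The groups did not overlap, and the log2 fold change was -1.75 ± 0.08. Summed over TUBA1A, TUBA1B and TUBA1C, a sum that does not depend on how shared reads were split among the 3, the level was 480.0, 615 and 599 CPM in doxorubicin libraries, against 2099, 2259 and 2284 CPM in DMSO libraries, 3.92-fold lower. The sum would still change if shared reads were dropped or counted more than once, which is not known.

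TUBA4A (chr2:219249711-219278170, minus strand), known from platelets and motor neurons, had 30.2, 35.2 and 36.0 CPM in doxorubicin libraries, against 71.5, 76.2 and 71.0 CPM in DMSO libraries. Its log2 fold change of -1.11 ± 0.08 (2.16-fold lower) was the smallest of the alpha-tubulins. Of TUBA4A exon bases, 15.4% overlap STK16, a gene with 2138 counts.

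The 6 beta-tubulin genes were also lower in every doxorubicin library than in every DMSO library, over a wider range of sizes. TUBB (chr6:30720201-30725426, plus strand), the main beta-tubulin of dividing cells, had 559, 727 and 697 CPM in doxorubicin libraries, against 2595, 2743 and 2787 CPM in DMSO libraries. With a mean of 661 ± 89.7 CPM in doxorubicin libraries and 2708 ± 100.3 CPM in DMSO libraries, it was 4.10-fold lower, a log2 fold change of -2.03 ± 0.09. This equals the change of TUBA1B within the SE of either gene.

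TUBB4B (chr9:137241213-137243707, plus strand), a beta-tubulin of dividing and ciliated cells, had 347, 399 and 398 CPM in doxorubicin libraries, against 1078, 1167 and 1218 CPM in DMSO libraries. Its log2 fold change was -1.60 ± 0.07, or 3.03-fold lower. TUBB6 (chr18:12307669-12344320, plus strand), the beta-tubulin raised in regenerating muscle and known to make microtubules less stable, had 402, 437 and 437 CPM in doxorubicin libraries, against 691.5, 795 and 817 CPM in DMSO libraries. Here the gap between groups was narrower, with a log2 fold change of -0.85 ± 0.07, 1.81-fold lower, and 9.06% of all tested genes had a lower one. Of TUBB6 exon bases, 20.3% overlap AFG3L2 (9635 counts), but none of its principal transcript (0%).

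TUBB2A (chr6:3153669-3157526, minus strand), a beta-tubulin of brain and other tissues, had 35.5, 50.7 and 46.9 CPM in doxorubicin libraries, against 76.1, 81.4 and 95.4 CPM in DMSO libraries. Doxorubicin replicate 1 was again the lowest library, and the log2 fold change was -0.92 ± 0.13. Its near copy TUBB2B (chr6:3224261-3231730, minus strand), known from brain development, had 3.64, 4.59 and 4.37 CPM in doxorubicin libraries, against 9.95, 10.3 and 10.9 CPM in DMSO libraries, a log2 fold change of -1.30 ± 0.14.

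Summed over TUBB2A and TUBB2B the level was 1.95-fold lower, with 39.1, 55.3 and 51.3 CPM in doxorubicin libraries and 86.1, 91.7 and 106 CPM in DMSO libraries. TUBB3 (chr16:89921392-89938761, plus strand), the neuronal beta-tubulin, was the scarcest, with 2.33, 2.48 and 1.96 CPM in doxorubicin libraries, against 3.80, 4.22 and 3.20 CPM in DMSO libraries. Its groups were the nearest to touching, and its log2 fold change of -0.73 ± 0.20 was the smallest of the 10. Of 10 neuron markers 5 passed the filter, and the list summed to 18.9 to 25.1 CPM in doxorubicin libraries and 8.33 to 8.84 CPM in DMSO libraries. Much of that sum was the neurofilament gene NEFL, at 10.6 ± 3.29 CPM in doxorubicin libraries and 0.0174 ± 0.0301 CPM in DMSO libraries. SNAP25, of synaptic vesicle fusion, was lower, at 4.79 ± 0.649 CPM in doxorubicin libraries and 6.61 ± 0.185 CPM in DMSO libraries, so the list did not move in 1 direction.

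**Figure D1:**
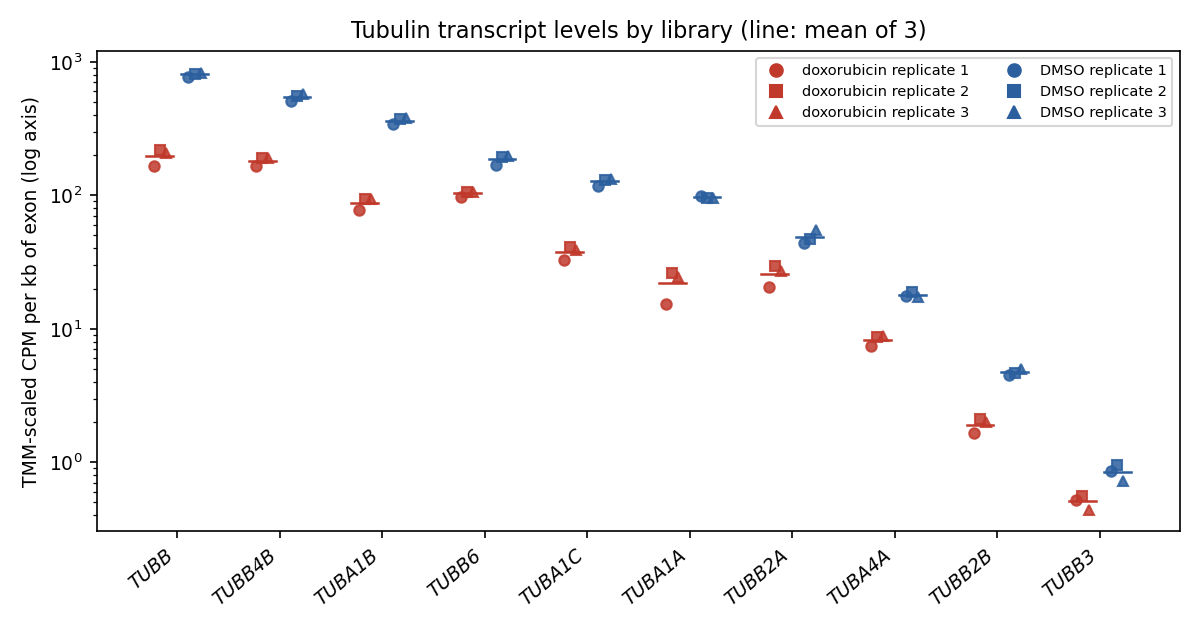
TMM-scaled CPM per kb of exon (log axis) for each of the 10 tubulin genes, with doxorubicin libraries on the left (red) and DMSO libraries on the right (blue) of each gene, a marker shape per replicate number and a line at the mean of 3. In all 10 genes the 3 doxorubicin libraries lie below the 3 DMSO libraries, and the levels span from TUBB at 197 and 806 to TUBB3 at 0.509 and 0.844 CPM per kb in doxorubicin and DMSO means.

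Per kb of exon, the only scale on which different genes are compared here, TUBB was the highest gene in both groups and TUBB3 the lowest. Exon length here counts all annotated exons of a gene, 3574 bases for TUBA1B and 2111 for TUBB4B. Their principal transcripts hold 1627 and 1637 bases, so the orders below depend on the length used. In doxorubicin libraries the order was TUBB (197 ± 26.7 CPM per kb), TUBB4B (181 ± 14.1), TUBB6 (103 ± 4.97), TUBA1B (88.1 ± 9.66), TUBA1C (37.7 ± 4.24), TUBB2A (25.7 ± 4.58), TUBA1A (22.0 ± 5.86), TUBA4A (8.28 ± 0.773), TUBB2B (1.91 ± 0.227) and TUBB3 (0.509 ± 0.0606). TUBB and TUBB4B overlapped in these libraries, as did TUBB2A and TUBA1A, so neither order is beyond the spread. In DMSO libraries no neighbours overlapped, and TUBA1B (363 ± 19.1 CPM per kb) stood above TUBB6 (187 ± 16.2), the reverse of their order with doxorubicin.

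At least 2-fold lower with doxorubicin were 7 of the 10 genes: TUBA1A, TUBA1B, TUBA1C, TUBA4A, TUBB, TUBB2B and TUBB4B. For scale, 4.73% of all tested genes had a log2 fold change below that of TUBA4A (-1.11), and 7.62% below that of TUBB2A (-0.92). The median log2 fold change of the 10 was -1.45, beside -0.0013 for all tested genes. All 10 lay on the lower side of the call (an adjusted p under 0.05 in edgeR's quasi-likelihood test), where 32.0% of all tested genes also lay, 64.7% being called in either direction, and all 10 had groups that did not overlap, in the lower direction, as did 34.3% of all tested genes. Because the genes were picked for this change, nothing is read from these counts.

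**Figure D2:**
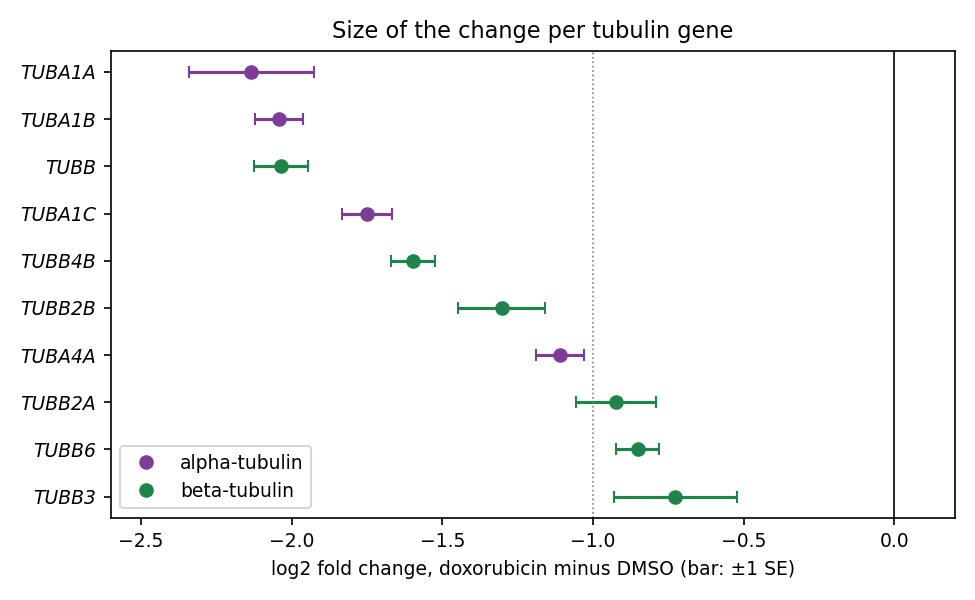
The log2 fold change (doxorubicin minus DMSO) of each tubulin gene with bars of 1 SE, alpha-tubulins in purple and beta-tubulins in green, and a dotted line at a 2-fold decrease. TUBA1A, TUBA1B and TUBB lie near -2, whereas TUBB2A, TUBB6 and TUBB3 lie to the right of the 2-fold line.

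Doxorubicin replicate 1 was the lowest doxorubicin library for 9 of the 10 genes, TUBB3 being the exception. It lay below the mean of the other doxorubicin libraries by a log2 difference of -0.73 in TUBA1A, -0.46 in TUBB2A and -0.35 in TUBB, but only -0.12 in TUBB6. In the same library the 14 mitotic spindle genes described below summed to 1150 CPM, against 1405 and 1352 CPM in doxorubicin replicates 2 and 3. Without that library the median log2 fold change of the tubulin genes was -1.37, and the same number, 7, were at least 2-fold lower.

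The summed level of the 10 genes was 1859, 2272 and 2220 CPM in doxorubicin libraries, against 6625, 7136 and 7286 CPM in DMSO libraries, 3.31-fold lower. Tubulin counts made up 0.190%, 0.231% and 0.222% of all counts in doxorubicin libraries, against 0.661%, 0.700% and 0.710% in DMSO libraries. Alpha-tubulins together were 3.82-fold lower and beta-tubulins 3.11-fold lower. The ratio of alpha to beta levels per kb was 0.294, 0.312 and 0.312 in doxorubicin libraries, against 0.383, 0.382 and 0.373 in DMSO libraries, so the ranges did not overlap. The size of this ratio depends on how reads in shared exons were treated, which is not known. It also depends on the exon length by which each gene is divided.

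The makeup of the beta-tubulin pool differed between the groups. TUBB made up 36.9%, 39.8% and 39.0% of beta-tubulin counts per kb in doxorubicin libraries, against 51.5%, 50.6% and 49.8% in DMSO libraries, a difference of -12.05 percentage points. TUBB6 made up 21.6%, 19.5% and 19.97% in doxorubicin libraries, against 11.2%, 11.9% and 11.9% in DMSO libraries, a difference of 8.69 points. TUBB4B hardly moved as a share, at 35.6% ± 0.847 in doxorubicin libraries and 34.3% ± 0.305 in DMSO libraries (SD, n = 3 each).

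TUBB2A held 5.02% ± 0.428 of the beta-tubulin pool in doxorubicin libraries and 3.06% ± 0.224 in DMSO libraries. Within the alpha-tubulin pool the shares differed less: TUBA1B held 56.6% ± 1.37 in doxorubicin libraries and 60.02% ± 0.614 in DMSO libraries, and TUBA1C 24.2% ± 0.633 in doxorubicin libraries and 21.0% ± 0.505 in DMSO libraries. TUBA4A held 5.33% ± 0.248 in doxorubicin libraries and 2.96% ± 0.139 in DMSO libraries. The share of TUBA1A was 11.5%, 15.4% and 14.8% in doxorubicin libraries, against 17.2%, 15.5% and 15.4% in DMSO libraries, ranges that all but touch. These shares come from the same values as the fold changes, carry the same limits on shared exons and exon length and have no test.

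**Figure D3:**
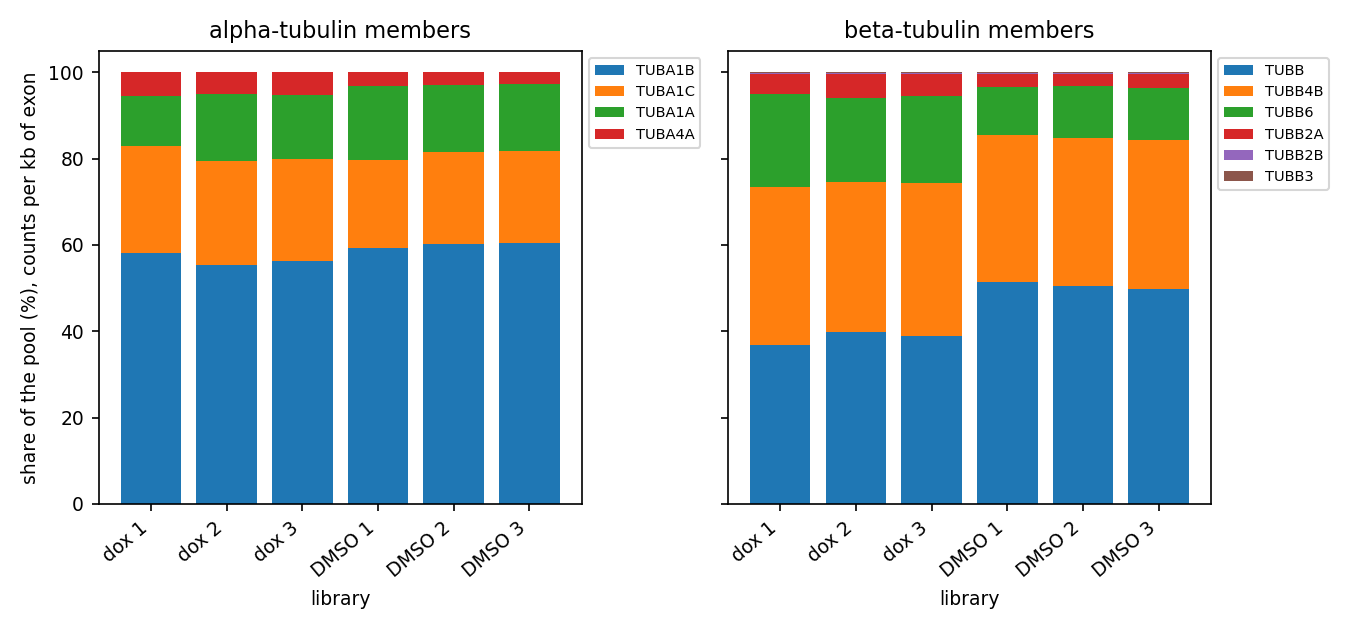
Stacked bars of the share (%) of each gene in the alpha-tubulin pool (left) and the beta-tubulin pool (right), from counts per kb of exon, per library, with doxorubicin libraries left of DMSO libraries. The TUBB band is narrower in doxorubicin libraries (36.9% to 39.8%) than in DMSO libraries (49.8% to 51.5%), and the TUBB6 band is wider.

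Promoters are shown for the 2 genes with more than 1 CCAAT in a single window. The RefSeq windows (GRCh38.p14) hold 250 bases before and 50 after a start site, with CCAAT and TTTGAA, each on either strand, in capitals.
TUBB4B, chr9:137241037-137241336, plus strand: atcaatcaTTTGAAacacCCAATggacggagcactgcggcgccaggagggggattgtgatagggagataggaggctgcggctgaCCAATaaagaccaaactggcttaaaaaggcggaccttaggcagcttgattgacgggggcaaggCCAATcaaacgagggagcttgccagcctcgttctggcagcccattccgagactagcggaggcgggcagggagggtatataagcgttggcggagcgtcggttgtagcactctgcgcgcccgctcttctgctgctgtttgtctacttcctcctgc
TUBA1A, chr12:49189031-49189330, minus strand: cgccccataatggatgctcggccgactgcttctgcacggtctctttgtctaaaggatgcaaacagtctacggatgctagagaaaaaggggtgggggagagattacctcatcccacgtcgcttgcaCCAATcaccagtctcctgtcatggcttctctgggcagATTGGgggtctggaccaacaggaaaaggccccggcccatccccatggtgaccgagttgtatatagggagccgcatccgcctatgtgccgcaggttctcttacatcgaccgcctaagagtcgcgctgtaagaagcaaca
CCAAT occurred 3 times in the TUBB4B window and 2 times in that of TUBA1A, and it occurred in 9 of the 15 windows of the 10 genes. The first and second TUBA1C windows overlap and hold the same CCAAT, so that site is counted in both. TUBA1B, TUBA4A and TUBB2A had none. It occurs in 34.6% of all 35116 RefSeq promoter windows. TTTGAA occurred in 4 of the 15 windows, in TUBB4B and in all 3 of TUBA1C, and occurs in 15.2% of all windows. GGGCGG, on either strand and not in capitals above, occurred in 9 of the 15 windows and occurs in 45% of all windows. A match is a run of letters and was not tested as a site, and its part in the tubulin changes was not tested.

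The genes around tubulin were read from 7 lists. A gene was called by the same test and threshold over all 15358 tested genes, of which 32.7% were higher and 32.0% lower with doxorubicin. Of 14 other tubulin genes, 4 passed the filter, and 3 fell. TUBG1, the gamma-tubulin that seeds microtubules, fell to 138 ± 3.55 CPM in doxorubicin libraries, against 188 ± 5.70 CPM in DMSO libraries (log2 -0.45 ± 0.06). Delta-tubulin TUBD1, of centriole triplets, fell by 0.95 on the log2 scale and TUBG2 by 0.47, whereas epsilon-tubulin TUBE1 had a log2 fold change of 0.28 (adjusted p = 0.072, edgeR) and was called higher without doxorubicin replicate 1.

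Of 21 genes that fold tubulin, 13 fell and 4 rose, and the list's median was -0.41 on the log2 scale. TBCB, a cofactor that binds alpha-tubulin, fell to 60.5 ± 5.89 CPM in doxorubicin libraries, against 126 ± 4.48 CPM in DMSO libraries (adjusted p = 2.9e-09, edgeR). CCT5, a subunit of the ring chaperonin that folds tubulin and actin, fell by 0.82 on the log2 scale. TBCEL, which takes tubulin dimers apart, rose to 36.7 ± 0.693 CPM in doxorubicin libraries, against 15.1 ± 1.56 CPM in DMSO libraries (adjusted p = 4.5e-09, edgeR). The related cofactor TBCE rose by 0.75 on the log2 scale, TBCC by 0.48 and the prefoldin subunit PFDN6 by 0.21, and TBCE and PFDN6 share 17.9% and 24.5% of their exon bases with another gene. The PFDN6 call was lost with no filter on low counts.

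Of 20 genes of the gamma-tubulin ring, its recruiters and augmin, 14 fell and 1 rose. TUBGCP3, a core ring subunit, fell to 22.9 ± 1.55 CPM in doxorubicin libraries, against 52.0 ± 4.34 CPM in DMSO libraries. MZT1, which recruits the ring, fell by 0.96 and HAUS1, an augmin subunit, by 0.95 on the log2 scale. AKAP9, a Golgi and centrosome scaffold for the ring, was the gene that rose, at 117 ± 7.11 CPM in doxorubicin libraries and 51.0 ± 6.79 CPM in DMSO libraries (adjusted p = 7.7e-09, edgeR). A second gene was called higher without doxorubicin replicate 1 or DMSO replicate 3 (TUBGCP6, a ring subunit) and without doxorubicin replicate 3 (HAUS7, an augmin subunit).

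Of 9 genes of tubulin mRNA autoregulation, 5 fell and 1 rose. TTC5, which recognises the residues encoded by the coding starts printed above, fell to 11.7 ± 0.792 CPM in doxorubicin libraries, against 22.3 ± 1.96 CPM in DMSO libraries (log2 -0.93 ± 0.10, adjusted p = 8.8e-07, edgeR). CNOT7, a deadenylase subunit of CCR4-NOT, fell by 0.84, CNOT2 by 0.52, CNOT3 by 0.35 and CNOT8 by 0.23 on the log2 scale. CNOT1, the scaffold, was called higher with a log2 fold change of 0.15 (adjusted p = 0.046, edgeR), a call lost under DESeq2, with no filter, with the replicate number as a block, and without doxorubicin replicate 1 or 2 or DMSO replicate 2 or 3.

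Of 20 tested genes that modify tubulin, 7 fell, 3 rose and 10 were not called, a share of fallen genes (35%) close to that of all genes. SVBP, the partner of the vasohibins that remove the last tyrosine of alpha-tubulin, fell to 4.60 ± 0.196 CPM in doxorubicin libraries, against 9.58 ± 0.729 CPM in DMSO libraries. TTL, which puts that tyrosine back, fell by 0.25, and the deacetylase HDAC6 by 0.86 on the log2 scale. AGBL5, which trims glutamates from tubulin tails, rose to 95.1 ± 9.34 CPM in doxorubicin libraries, against 52.5 ± 2.16 CPM in DMSO libraries. The deacetylase SIRT2 and the deglutamylase AGBL2 rose by 0.26 and 1.08 on the log2 scale, AGBL2 at 1.17 ± 0.384 CPM in doxorubicin libraries and 0.545 ± 0.282 CPM in DMSO libraries. The AGBL2 call was lost under DESeq2 and without doxorubicin replicate 1, DMSO replicate 2 or DMSO replicate 3, and a filter of 1 CPM in 3 libraries removed it.

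Of 26 tested genes for proteins that bind the microtubule lattice or ends or sever it, 14 fell, 4 rose and 8 were not called. STMN1, which sequesters dimers, fell to 210.4 ± 16.2 CPM in doxorubicin libraries, against 485 ± 14.2 CPM in DMSO libraries (adjusted p = 1.9e-10, edgeR). Its relative STMN3 rose to 30.2 ± 4.94 CPM in doxorubicin libraries, against 10.5 ± 1.04 CPM in DMSO libraries (adjusted p = 1.8e-08, edgeR). MAP1B fell by 1.18 and MAP4 by 0.98 on the log2 scale, both microtubule stabilisers, whereas MAPRE3 rose by 0.91, MAP6 by 1.61 and MAP1A by 0.23. MAP6 was scarce, at 0.947 ± 0.332 CPM in doxorubicin libraries and 0.307 ± 0.137 CPM in DMSO libraries, and the filter of 1 CPM removed it.

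Of 14 mitotic spindle genes, 13 fell, 11 of them at least 2-fold, and NUMA1 was not called. Among all tested genes, 4.73% had a log2 fold change below that of TUBA4A (-1.11) and 7.62% below that of TUBB2A (-0.92), which bracket 2-fold. PRC1, 1 of the 11, held 207 counts and shared 57.6% of its exon bases with a same-strand gene of 549 counts. The median log2 fold change of the 14 spindle genes, -1.38, lies near the -1.45 of the tubulin genes. HMMR, a spindle pole protein, fell to 19.9 ± 5.20 CPM in doxorubicin libraries, against 112 ± 16.4 CPM in DMSO libraries, and ASPM, another pole protein, to 48.7 ± 10.6 CPM in doxorubicin libraries, against 213 ± 25.4 CPM in DMSO libraries. The part of cell division genes in the tubulin values was not tested.

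**Figure D4:**
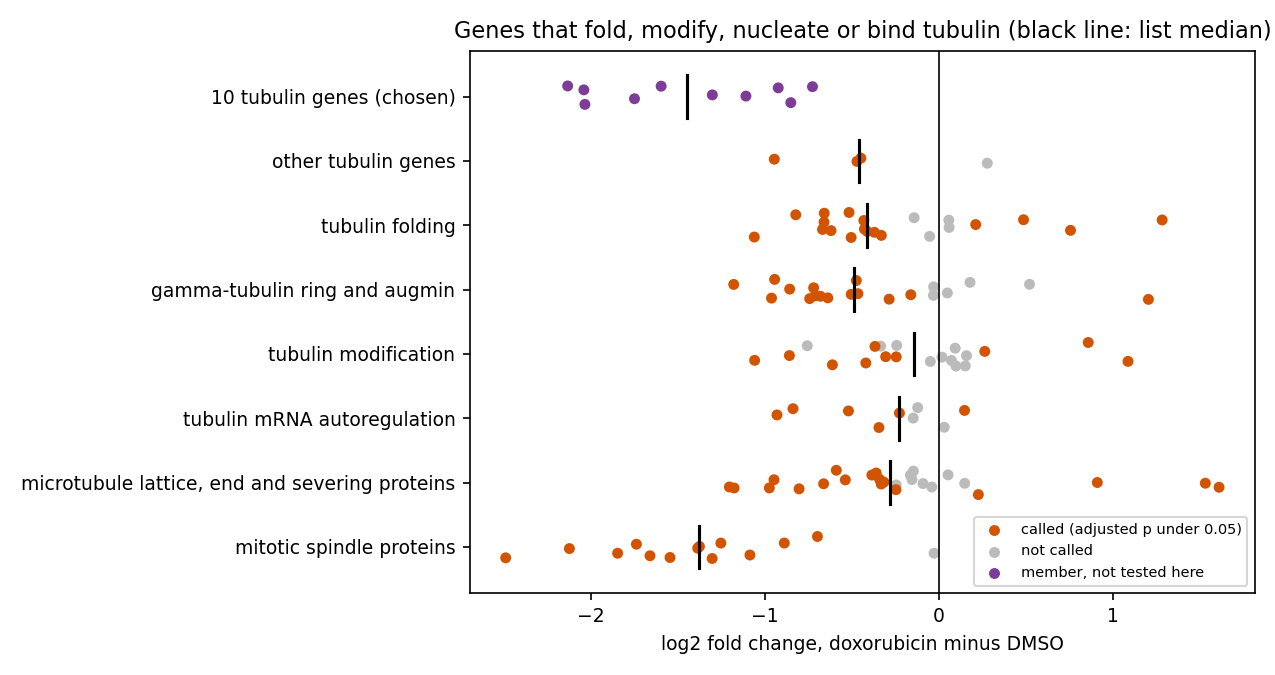
The log2 fold change (doxorubicin minus DMSO) of every tested gene of 8 lists, with called genes in orange, genes not called in grey, the 10 chosen tubulin genes in purple and a black line at each list's median. The spindle list, with a median of -1.38, is the one whose median lies nearest to that of the tubulin genes (-1.45), and the median of the modification list is -0.15.

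Patterns most like those of the extreme members were sought over the 6 libraries, as the smallest distance between log2 CPM profiles centred on the DMSO mean, among the 6376 genes outside the lists whose mean log2 CPM was 5 or more. TUBB3 lies below that level, so its neighbours are all more abundant genes. TUBA1A was nearest to CDK15 (distance 0.187 log2 units), NUF2, a kinetochore protein (0.229), and KIF23, a motor of cell division (0.290). TUBB3 was nearest to KCTD3 (0.228), STARD13 (0.254) and RBL1, a relative of the retinoblastoma protein (0.260).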

How the data were processed

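The authors deposited raw counts per gene in a featureCounts layout, per the file headers. Tools named are featureCounts, STAR, Subread and SAMtools, with GRCh38 (hg38) as the build, per the submitters' processing notes. Versions, and the handling of multi-mapping and overlapping reads, are not given in the sources used here. Libraries were poly(A)-selected and unstranded, per the labels' protocols. Symbols came from a gene name table (57717 of 58299 IDs) and GENCODE release 29. The count test was run in R 4.3.3 with edgeR 4.0.16, after filterByExpr (minimum count 10, minimum total 15) and TMM scaling, as the two-sided quasi-likelihood test of doxorubicin minus DMSO with Benjamini-Hochberg adjustment over 15358 genes. Levels per kb divide CPM by summed exon length. The members and lists were chosen with earlier results of these data known. Named were all 10 members, the 2 called list genes with the largest change at a mean log2 CPM of at least 1, all called genes of a direction with 5 or fewer, and the 3 nearest patterns. Other list genes named were chosen after their values were seen (CCT5, MZT1, HAUS1, TTL, MAP1B, MAP4, TUBGCP6, HAUS7, TUBE1, NUMA1, HAUS6, PRC1). So were the markers NEFL, SNAP25, COL1A1, DCN and LUM. The fit was tested on simulated counts in which few genes changed, as many higher as lower. Its error rate where most genes change, as here, was not tested. Alternatives were DESeq2, other scalings and filters, a replicate block and leaving out each library. Tail sequences of the alpha-tubulin genes are not reported here.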

Additional observations from a re-analysis of the deposited data

How the results depend on the processing

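Of 574 recomputed values, 554 were scored the same, 20 moved and 0 reversed. A fold change, summed level or share was the same if it kept its sign and stayed within the replicate SD of its main value. A count was the same if it stayed within 1.5 times its main value, whichever genes were called. Shares come from unscaled counts, so only leaving out a library could change them. All 10 tubulin genes were lower under all 14 alternatives, with log2 fold changes between -2.28 and -0.63. The summed level of the 10 genes ran over -1.78 to -1.64. Deviations from the group mean hardly correlated between libraries of the same replicate number (0.0481, -0.0186 and 0.0217). Between libraries of different numbers the correlations ran from -0.0651 to 0.0544. With 3 libraries per group this cannot show whether the samples were paired. With the replicate number as a block 5003 genes were higher and 4917 lower, against 5017 and 4917 without it. Higher calls in the gamma-tubulin ring and augmin list numbered 2 rather than 1 under RLE, upper-quartile and library-total scaling, without the 50 most abundant other genes, with a 1 CPM filter and with the replicate block (TUBGCP6 added), and 1 to 2 when a library was left out. Higher calls among other tubulin genes numbered 1 rather than 0 with DESeq2 and with no filter (TUBB8) and with library totals (TUBE1), and 0 to 1 when a library was left out, 1 without doxorubicin replicate 1 (TUBE1). Higher calls in the autoregulation list numbered 0 rather than 1 with DESeq2, with no filter and with the replicate block, and 0 to 1 when a library was left out. The cause was not tested. TUBB3 had the fewest counts of the 10 genes, 330 over 6 libraries, and TUBA1A the widest SE. HAUS6, counted among the 14 genes of its list that fell, lost its call under 10 of the 14 alternatives.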

Other observations

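TUBB8, a beta-tubulin known from oocytes, was named after its values were seen. It failed the filter on low counts and held 24 counts in the doxorubicin libraries and 1 in the DMSO libraries. The ratio, allowing for library size, was 24.4 with an exact 95% interval of 3.97 to 1001 that covers counting error only. With no filter its log2 fold change was 4.14 (adjusted p = 0.00018, edgeR), and under DESeq2 its adjusted p was 0.0078. Because TUBB8 was picked by these same counts, the interval and p-values are a description only. The pseudogene TUBB8P7 held 10, 4 and 3 counts in doxorubicin libraries and 2, 0 and 2 in DMSO libraries. Sequence shared between TUBB8 and other genes was not measured, so whether these reads are its own is uncertain. The median log2 fold change of all 34828 genes in the fit with no filter was 0.375, so scarce genes tended to be higher with doxorubicin.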
